A study of Mus musculus with 15 samples.

Results

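Axon guidance ligands and receptors were followed in cultured primary mouse hippocampal neurons, as 65 genes of the 24498 in the deposited count table. They were chosen by symbol: ephrins and their Eph receptors, semaphorins of classes 3 to 7 with plexins and neuropilins, Slit and Robo genes, and netrins with Dcc and Unc5 genes. A total of 69 rows matched, and the 4 with fewer than 150 counts over the 15 libraries (Ntn5, Epha1, Sema3g and Robo4) were left out. Of the 65, 33 encode ligands and 32 receptors. All 65 were tested, and 62 of them reached the level of the expression filter (0.44 CPM) in at least 3 libraries of every group. Epha2, Plxnb3 and Sema3d did not, and entered through the groups in which they are higher. The cultures had differentiated for 7 days in supplemented neurobasal medium and were then treated for 24 h. The 4 groups received DMSO and medium (DMSO vehicle, n = 4), DMSO and 5 mM acetate (DMSO acetate, n = 4), 20 µM of an ACSS2 inhibitor and medium (inhibitor vehicle, n = 3), or the inhibitor and acetate (inhibitor acetate, n = 4). Acetate, a product of alcohol breakdown, stood in for heavy drinking according to the design text, and ACSS2 is an enzyme that makes acetyl-CoA from acetate. A library is called by its group and its replicate. Strain, age and sex of the mice were not named in the sources used here. Because no source says that replicates came from different cultures or mice, p-values reflect only how much these libraries varied, which may be technical.

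Growing axons and dendrites are steered by cues that attract or repel them. Ephrins sit on the surface of one cell and bind Eph receptor tyrosine kinases on another; A-type ephrins are held by a lipid anchor and B-type ephrins span the membrane. Semaphorins are secreted or membrane-bound ligands of plexins, and most of the secreted class 3 members need neuropilins to bind. Slits repel axons through Robo receptors, while netrin-1 attracts them through Dcc and repels them through Unc5 receptors. In the hippocampus the same genes also act later, on dendritic spines and synapses.

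Markers of cells other than neurons were present unevenly among the libraries, and most of those tested fell with acetate. In summed level the oligodendrocyte list overlapped between vehicle and acetate in both arms, and the astrocyte, microglia and meningeal lists overlapped with inhibitor. Levels are given in CPM, read counts scaled to a common library size with TMM, and ranges over the libraries follow the order DMSO vehicle, DMSO acetate, inhibitor vehicle, inhibitor acetate. The 14 neuronal markers all entered the test, with summed levels of 5459 to 8323, 10557 to 12218, 6179 to 8292 and 9740.4 to 10775 CPM. Astrocyte markers were also abundant, with sums of 4403 to 12254, 3441 to 4269, 4122 to 13388 and 3022 to 4527 CPM. Oligodendrocyte lineage markers gave 286 to 879, 707 to 991, 246 to 1094 and 438 to 1100.5 CPM, and microglia and macrophage markers 179 to 801, 62.8 to 86.5, 45.5 to 689.5 and 50.6 to 98.6 CPM. Vessel markers gave 185 to 462, 49.98 to 68.1, 59.5 to 320.4 and 40.1 to 56.5 CPM, where the endothelial receptor Tie1 was at 0 in each inhibitor acetate library, and meningeal and fibroblast markers 118 to 588, 67.3 to 81.8, 57.6 to 522 and 61.7 to 80.5 CPM. A non-neuronal score, the mean log2 CPM over these 5 lists, had means of 4.34 ± 0.65 (SD, n = 4), 2.26 ± 0.047 (n = 4), 3.60 ± 1.41 (n = 3) and 2.11 ± 0.15 (n = 4) in that order. The score was 3.37 for DMSO vehicle 1 and 4.53 to 4.74 for the rest of that group; it was 1.98 for inhibitor vehicle 2, as low as with acetate, and 4.26 and 4.56 for its 2 companions. With acetate and no inhibitor, edgeR called 12 of 14 neuronal markers raised. It called lowered 7 of 11 astrocyte, 8 of 10 tested oligodendrocyte, 13 of 14 tested microglia, 6 of 10 tested vessel and 9 of 11 tested meningeal markers, while 1 vessel marker was raised. With inhibitor, 11 neuronal markers were raised and 5, 6, 14, 6 and 8 of the other lists lowered. In bulk RNA, fewer cells of a type and less RNA per cell cannot be told apart. The part of these cells in the results was not tested, and folds from a fit with the score as a covariate or from one scaled on the neuronal markers are given beside part of them. Gene counts ranged from 19688231 to 39234799 per library, so 1 count was worth 0.028 to 0.054 CPM.

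Acetate was compared with vehicle in cultures without inhibitor and, in other libraries, with inhibitor. Guidance genes moved in both directions, and more of them rose than fell. In both arms, 5 of 8 A-type Eph receptors, 4 of 6 class 4 semaphorins, 3 of 4 A-type plexins, Sema6b, Sema6c and Slit1 rose with TMM scaling, and Efna5, Plxnb1, Plxnb2, Sema5a and Slit2 fell. Among the 22 that rose in both arms, scaling on neuronal markers turned the folds of the 3 plexins, Efna2, Efnb1, Epha7 and Nrp2 negative in both arms, and those of Epha4, Ephb6, Sema4c, Sema4g and Unc5a in 1 arm. Without inhibitor, 26 of 65 rose (40%) and 15 fell (23.1%), where 23.7% of the 15075 genes tested rose and 27.5% fell. With inhibitor, 26 rose and 11 fell (16.9%), against 14.5% and 20.6% of all genes. Among the falls are Epha2 and Plxnb3 in both arms and Sema3d without inhibitor, which passed the filter through the groups where they are higher, so that their falls are given as values and not as support. Rises and falls are those with a Benjamini-Hochberg adjusted p under 0.05 in edgeR's quasi-likelihood test over all genes, and folds are log2 values. The median fold of the 65 was 0.25 without and 0.25 with inhibitor, and that of all genes -0.034 and -0.030. Of 33 ligands, 12 rose and 9 fell without inhibitor and 12 and 6 with it; of 32 receptors, 14 rose and 6 fell without and 14 and 5 with it.

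The same 22 members rose in both arms, 84.6% of the 26 in each, and 11 fell in both, which is 73.3% of the 15 without and all 11 with inhibitor. The 11 include Epha2 and Plxnb3, and the 15 also Sema3d, which passed the filter through the groups where they are higher. The shares of falls are therefore given as values and not as support. No member passed in opposite directions. Over all genes the shared rises were 43.0% and 70.6% of the lists without and with inhibitor, and the shared falls 57.2% and 76.3%. Leaving out DMSO vehicle 1 and inhibitor vehicle 2, 30 rose and 17 fell without inhibitor, against 28% and 31.6% of all genes, and 32 and 16 with it, against 22.5% and 26.7%. These 2 libraries were chosen because they stood apart in these same data. Calls and p-values from the fit without them, here and below, are given as values and not as support. Of the 22 raised in both arms, DMSO vehicle 1 was the highest DMSO vehicle library for 16, and inhibitor vehicle 2 the highest of its group for 14 and the lowest for 5. Of the 11 lowered, inhibitor vehicle 2 was the lowest of its group for all 11, and DMSO vehicle 1 the lowest for 4 and the highest for 4. The same was not counted over all genes, so these counts are not a trait of the members. Chi-square per gene over the whole table was 63.3 to 86.8 between DMSO vehicle 1 and its companions, and 4.65 to 16.7 among those. For inhibitor vehicle 2 it was 129 and 144, and 13.7 between its companions. Scaling on neuronal markers shifted the median of all genes from -0.034 to -0.74 without and from -0.030 to -0.55 with inhibitor, and the members' medians to -0.47 and -0.27. Under it, 6 members rose and 39 fell without inhibitor, where 1.99% of all genes rose and 79.6% fell, and 6 and 25 with it, where 1.43% and 65.2% did. With the covariate, 15 rose and 6 fell without inhibitor, against 8.13% and 6.75% of all genes. With inhibitor 10 rose and 2 fell in that fit, against 5.23% and 6.77%. Without inhibitor vehicle 1, 17 members rose and 8 fell with inhibitor, against 8.16% and 12.3% of all genes.

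**Figure D1:**
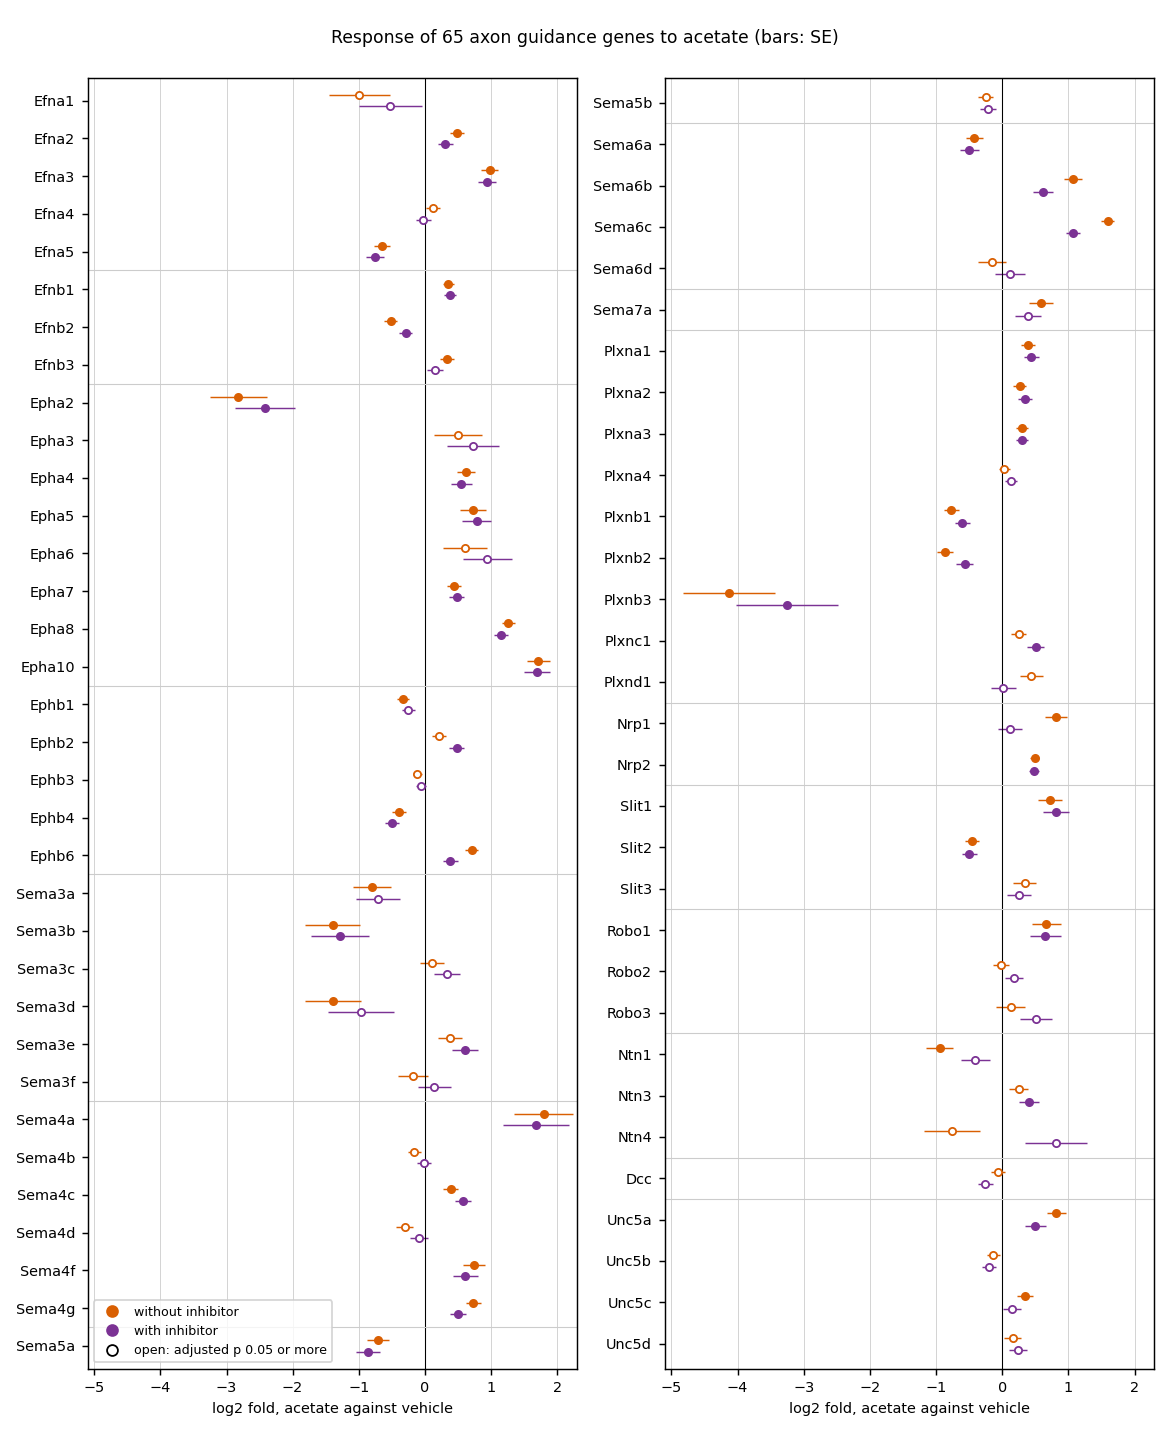
Log2 fold with acetate against vehicle (horizontal axis) for each of the 65 members, grouped by family, without inhibitor in orange and with inhibitor in purple; bars are the SE and filled points passed the test. Epha10 lies at 1.71 and 1.70 and Plxnb3 at -4.13 and -3.25; scaled on neuronal markers, which is not drawn, 39 members and 79.6% of all genes fell without inhibitor.

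Promoter sequences were read from RefSeq (build GRCm38.p6, the same assembly as mm10) for the members that passed the test in the same direction in both acetate comparisons. Of those 33 members, 22 had a single listed start, and in 12 of the 22 the 250 bases before the start held no annotated exon. Shown are the 2 raised and the 2 lowered of these 12 with the highest and lowest mean folds, all from the Eph and ephrin-A families; capitals mark GC boxes (GGGCGG, either strand, overlaps allowed) and the cyclic AMP response element (TGACGTCA). The window of Epha8 lies at chr4:136956817-136957066 (minus strand), Epha5 at chr5:84417383-84417632 (minus strand), Efna5 at chr17:62881318-62881567 (minus strand) and Epha2 at chr4:141300971-141301220 (plus strand).
Epha8: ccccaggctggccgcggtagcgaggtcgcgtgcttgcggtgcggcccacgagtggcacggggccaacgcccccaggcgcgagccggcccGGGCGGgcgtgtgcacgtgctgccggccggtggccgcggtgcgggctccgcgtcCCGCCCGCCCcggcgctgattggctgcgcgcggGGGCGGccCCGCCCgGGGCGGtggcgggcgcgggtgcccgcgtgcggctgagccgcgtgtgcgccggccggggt
Epha5: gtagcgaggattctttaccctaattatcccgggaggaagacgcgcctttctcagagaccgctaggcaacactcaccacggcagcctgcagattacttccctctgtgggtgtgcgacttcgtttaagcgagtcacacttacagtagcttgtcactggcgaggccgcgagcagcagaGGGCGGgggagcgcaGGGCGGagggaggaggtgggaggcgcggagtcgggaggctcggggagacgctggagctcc
Efna5: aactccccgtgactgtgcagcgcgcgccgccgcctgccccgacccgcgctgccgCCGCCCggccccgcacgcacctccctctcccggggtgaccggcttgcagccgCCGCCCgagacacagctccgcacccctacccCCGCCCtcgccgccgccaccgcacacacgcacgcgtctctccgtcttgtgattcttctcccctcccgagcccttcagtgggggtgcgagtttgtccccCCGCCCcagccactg
Epha2: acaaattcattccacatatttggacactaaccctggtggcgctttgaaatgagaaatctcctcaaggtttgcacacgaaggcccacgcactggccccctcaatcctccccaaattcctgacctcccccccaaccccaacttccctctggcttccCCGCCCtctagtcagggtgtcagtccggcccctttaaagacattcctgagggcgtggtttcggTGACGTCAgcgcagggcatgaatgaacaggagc
Epha8, an Eph receptor that rose with acetate, had 6 GC boxes in its window and Epha5, also raised, had 2. Efna5, a ligand that fell, had 4, and Epha2, a receptor that fell, had 1 together with 1 cyclic AMP response element. GC boxes stood in 23 of 28 listed promoters of the raised members and in 9 of 10 of the lowered ones, a high share in both. Over the listed promoters of all members it was 51 of 71 (71.8%). In the 250 bases before the start of all 32851 listed promoters the share was 32.7%, and the median GC content was 52.4% against 64.4% for the 71 listed promoters of members. The cyclic AMP response element occurred in 1 of the 71 and in 1.55% of all promoters. A match is a description of letters in this window only.

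Epha10, Epha8, Efna3 and Sema6c were the 4 members that rose in both arms with TMM scaling, with scaling on neuronal markers and with a covariate for the non-neuronal score. How many of all genes did so was not counted. Epha10, an Eph receptor whose kinase domain lacks catalytic activity (chromosome 4, 124880899 to 124917800), stood at 20.01, 9.94, 12.4 and 13.8 CPM in DMSO vehicle 1 to 4 and 50.9, 48.8, 43.1 and 41.2 CPM in DMSO acetate 1 to 4. Every acetate library exceeded every vehicle library, the highest vehicle value being that of replicate 1. With inhibitor it stood at 13.3, 18.5 and 11.9 CPM in inhibitor vehicle 1 to 3 and 46.8, 51.2, 45.99 and 44.6 CPM in inhibitor acetate 1 to 4, again without overlap. The folds were 1.71 (SE 0.18, edgeR adjusted p = 1.26e-05) and 1.70 (SE 0.20, edgeR adjusted p = 0.000115), and 1.05 and 1.20 when scaled on neuronal markers. Sema6c, a transmembrane semaphorin (chromosome 3, 95160457 to 95174024), was at 78.8, 67.8, 79.6 and 86.8 CPM in DMSO vehicle 1 to 4 and 246, 259.8, 213 and 224 CPM in DMSO acetate 1 to 4. It was at 104, 119 and 96.5 CPM in inhibitor vehicle 1 to 3 and 221, 249.6, 209 and 215 CPM in inhibitor acetate 1 to 4, so neither pair of groups overlapped. Its folds were 1.59 (SE 0.095, edgeR adjusted p = 3.13e-07) and 1.07 (SE 0.10, edgeR adjusted p = 3.3e-05), with 0.88 and 0.56 on neuronal markers.

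Epha8, another A-type Eph receptor (chromosome 4, 136929419 to 136956816), stood at 20.6, 19.03, 22.3 and 22.9 CPM in DMSO vehicle 1 to 4 and 57.2, 50.7, 46.6 and 47.9 CPM in DMSO acetate 1 to 4, and at 17.7, 19.6 and 19.5 CPM in inhibitor vehicle 1 to 3 and 37.04, 47.4, 37.7 and 45.4 CPM in inhibitor acetate 1 to 4. Groups did not overlap, and DMSO vehicle 1 and inhibitor vehicle 2 lay among the other vehicle libraries. Folds were 1.26 (SE 0.10, edgeR adjusted p = 2.35e-06) and 1.15 (SE 0.11, edgeR adjusted p = 3.13e-05), and, with the score in the fit, 1.27 and 1.15. Efna3, an ephrin ligand with a lipid anchor (chromosome 3, 89313899 to 89322965), was at 73.1, 47.6, 59.5 and 62.4 CPM in DMSO vehicle 1 to 4 and 128, 133, 99.6 and 116 CPM in DMSO acetate 1 to 4, and at 61.5, 68.5 and 53.6 CPM in inhibitor vehicle 1 to 3 and 114, 125, 104 and 124 CPM in inhibitor acetate 1 to 4. No vehicle library reached an acetate library in either arm. It rose by 0.98 (SE 0.12) without and 0.93 (SE 0.14) with inhibitor, and by 0.29 and 0.42 when scaled on neuronal markers.

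**Figure D2:**
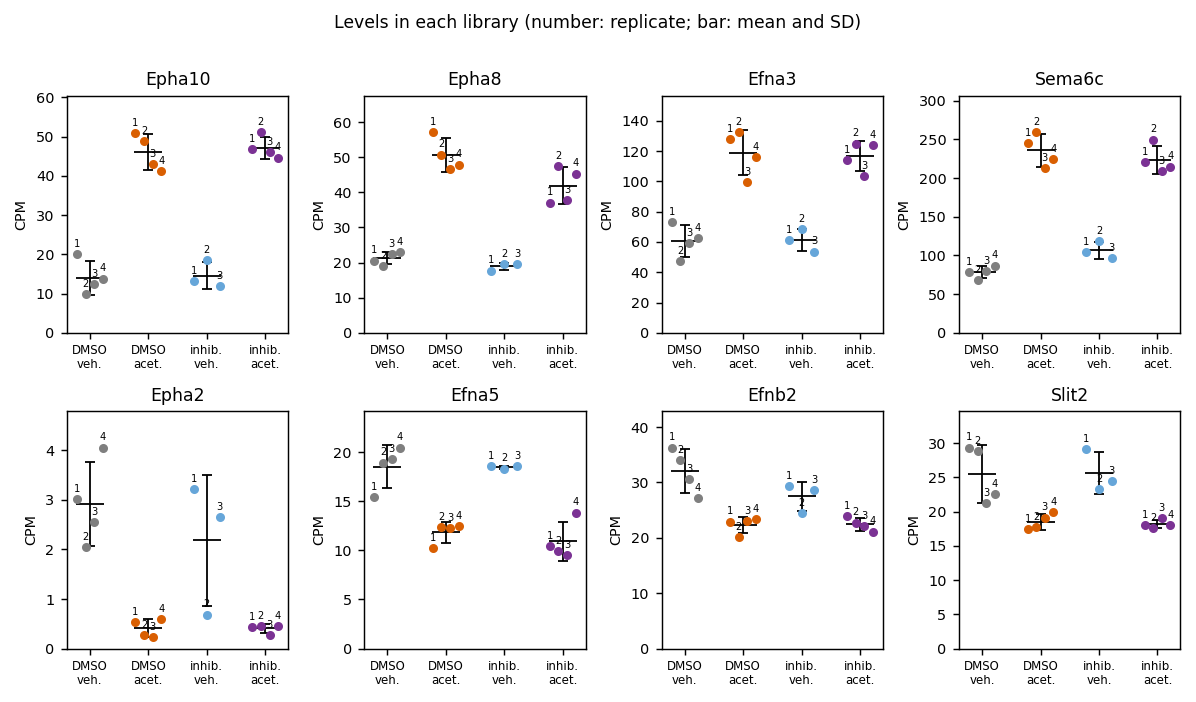
CPM (vertical axis, from 0) in each library of the 4 groups for 4 members that rose and 4 that fell in both arms; points are libraries with the replicate number, and bars the mean and SD. The acetate libraries of Epha10 lie between 41.2 and 51.2 CPM and the vehicle libraries between 9.94 and 20.01 CPM; under neuronal marker scaling, which lowers folds in general, the 4 raised genes still rose.

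Among the other ephrin ligands, members of both types went in opposite directions. Without inhibitor, 2 of 5 A-type ephrins rose and 1 fell, and 2 of 3 B-type ephrins rose and 1 fell. In that arm 23.7% of all genes rose and 27.5% fell. Efna5, a repellent cue for retinal and hippocampal axons, stood at 15.5, 18.9, 19.3 and 20.5 CPM in DMSO vehicle 1 to 4 and 10.3, 12.4, 12.3 and 12.5 CPM in DMSO acetate 1 to 4, and at 18.6, 18.3 and 18.6 CPM in inhibitor vehicle 1 to 3 and 10.4, 9.92, 9.55 and 13.9 CPM in inhibitor acetate 1 to 4. No acetate library reached a vehicle library in either arm. It fell by 0.65 (edgeR adjusted p = 0.000605) without and 0.76 (edgeR adjusted p = 0.00107) with inhibitor; with the score as a covariate the folds were -0.53 (adjusted p = 0.062) and -0.67 (adjusted p = 0.0118). Efnb2, a membrane-spanning ephrin of vessels and neurons, was at 36.3, 34.1, 30.6 and 27.2 CPM in DMSO vehicle 1 to 4 and 22.9, 20.2, 23.04 and 23.4 CPM in DMSO acetate 1 to 4. Its fold was -0.52 (SE 0.094) without and -0.29 (SE 0.10) with inhibitor, the latter call being lost without inhibitor vehicle 1 or 3 or inhibitor acetate 2, 3 or 4 (edgeR adjusted p between 0.0647 and 0.155); with the covariate it had -0.47 (adjusted p = 0.0396) and -0.25 (adjusted p = 0.227). Efna2 rose by 0.48 (SE 0.11) and 0.31 (SE 0.12), and Efnb1 by 0.35 (SE 0.085) and 0.38 (SE 0.093). Scaled on neuronal markers, Efna2 turned to -0.23 and -0.20 and Efnb1 to -0.35 and -0.15, and Efna2 with inhibitor lost its call without DMSO vehicle 4, DMSO acetate 1, 2, 3 or 4, inhibitor vehicle 1 or 3 or inhibitor acetate 1, 2 or 4 (edgeR adjusted p between 0.0547 and 0.19). Efnb3, the member with the highest level per kilobase of exon, stood at 248, 201, 226 and 209.6 CPM in DMSO vehicle 1 to 4 and 324, 274, 269.9 and 248 CPM in DMSO acetate 1 to 4. It had 0.34 (SE 0.11) without inhibitor, which passed, and 0.15 (SE 0.12) with it, which did not. The first was lost without DMSO vehicle 2 or 4 or DMSO acetate 1 (edgeR adjusted p between 0.0526 and 0.063), and neuronal marker scaling turned both, to -0.36 and -0.40. Efna1 was uneven: it stood at 0.64, 4.37, 4.08 and 4.06 CPM in DMSO vehicle 1 to 4, with replicate 1 far below the rest, and at 2.16, 1.38, 1.17 and 1.84 CPM in DMSO acetate. Its fold of -0.99 (SE 0.46) did not pass with all libraries, while without DMSO vehicle 1 and inhibitor vehicle 2 it was -1.32 (edgeR adjusted p = 6.54e-06), and it passed without either one, DMSO vehicle 1 or inhibitor vehicle 2 (edgeR adjusted p between 0.00266 and 0.0455). Efna4 had 0.13 (SE 0.10) and -0.028 (SE 0.11) and passed in neither arm.

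Of 8 A-type Eph receptors, 5 rose in each arm, 1, Epha2, fell in each, and 2 did not pass. The shares of all genes that rose were 23.7% without and 14.5% with inhibitor, and 27.5% and 20.6% fell. Epha2, the receptor of this type best known from epithelia and vessels (chromosome 4, 141301240 to 141329384), stood at 3.01, 2.05, 2.55 and 4.06 CPM in DMSO vehicle 1 to 4 and 0.527, 0.276, 0.234 and 0.595 CPM in DMSO acetate 1 to 4. With inhibitor it was at 3.22, 0.684 and 2.65 CPM in inhibitor vehicle 1 to 3 and 0.435, 0.459, 0.278 and 0.45 CPM in inhibitor acetate 1 to 4, so the groups did not overlap in either arm, and inhibitor vehicle 2 lay nearest the acetate libraries. It fell by 2.82 (SE 0.43, edgeR adjusted p = 0.000152) and by 2.42 (SE 0.46, edgeR adjusted p = 0.00189). Its acetate values lie on both sides of the filter level, which it passed through vehicle libraries. Its fall is therefore given as a value and not as support. Most tested markers of the non-neuronal lists fell too, and their part was not tested. With the score as a covariate the folds of Epha2 were -1.77 (edgeR adjusted p = 0.0295) and -1.48 (edgeR adjusted p = 0.0708). Epha4, a receptor for both ephrin types that acts on dendritic spines, was at 103, 88.8, 76.1 and 78.01 CPM in DMSO vehicle 1 to 4 and 118, 123, 142 and 148 CPM in DMSO acetate 1 to 4. Its folds of 0.62 (SE 0.14) and 0.55 (SE 0.15) became -0.066 and 0.053 on neuronal markers. Epha5, a receptor of forebrain neurons, stood at 42.7, 32.5, 25.2 and 21.2 CPM in DMSO vehicle 1 to 4 and 44.8, 48.3, 51.8 and 57.2 CPM in DMSO acetate 1 to 4. Here DMSO vehicle 1 lay just below the lowest acetate library and well above the rest of its group. Its folds were 0.73 (SE 0.20) and 0.78 (SE 0.22), and in the covariate fit 0.050 and 0.31, neither past the threshold. Epha7 had 0.44 (SE 0.10) and 0.48 (SE 0.11), which turned to -0.26 and -0.027 on neuronal markers. With inhibitor, the call of Epha4 was lost without inhibitor vehicle 1 (edgeR adjusted p = 0.0748) and that of Epha5 without inhibitor vehicle 1 or 3 (edgeR adjusted p between 0.0642 and 0.068). Epha3, with 0.50 (SE 0.36) and 0.73 (SE 0.39), and Epha6, with 0.60 (SE 0.34) and 0.94 (SE 0.38), did not pass. With inhibitor, Epha3 passed without inhibitor vehicle 2 (edgeR adjusted p = 0.0268), at 1.21, and Epha6 without DMSO vehicle 1 or 4, inhibitor vehicle 2 or inhibitor acetate 4 (edgeR adjusted p between 0.012 and 0.0498).

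B-type Eph receptors, which signal at excitatory synapses, divided. Ephb6, like Epha10 a receptor without kinase activity, was at 119, 92.9, 115 and 113 CPM in DMSO vehicle 1 to 4 and 198, 197, 154 and 167 CPM in DMSO acetate 1 to 4, and at 157, 139 and 131 CPM in inhibitor vehicle 1 to 3 and 176, 190.1, 174 and 201 CPM in inhibitor acetate 1 to 4. Both acetate groups lay above their vehicle groups. Its folds were 0.70 (SE 0.10, edgeR adjusted p = 9.35e-05) and 0.38 (SE 0.11, edgeR adjusted p = 0.0138), but on neuronal markers 0.00038 and -0.15, with the sign turned in the inhibitor arm; that arm's call was lost without inhibitor vehicle 3 (edgeR adjusted p = 0.0631). Ephb4, the partner of Efnb2 in vessels, fell by 0.39 (SE 0.10) and 0.50 (SE 0.11), and in the second arm stood at 18.2, 14.4 and 17.1 CPM in inhibitor vehicle 1 to 3 and 13.2, 10.6, 12.8 and 10.3 CPM in inhibitor acetate 1 to 4; with the covariate it had -0.23 (adjusted p = 0.345) and -0.37 (adjusted p = 0.0826). Ephb1 fell by 0.33 (SE 0.090) without inhibitor and had -0.25 (SE 0.10) with it, which did not pass; in that arm it passed without DMSO vehicle 1 or 4 or inhibitor acetate 4 (edgeR adjusted p between 0.0281 and 0.049). Ephb2, which clusters NMDA receptors, had 0.21 (SE 0.10) without inhibitor, not passed, and rose by 0.48 (SE 0.11) with it. Scaled on neuronal markers it had -0.47 and -0.050. Without DMSO vehicle 1 it passed in the arm without inhibitor, at 0.31. The difference of its responses was 0.26 (SE 0.15) (edgeR adjusted p = 0.333). Ephb3 had -0.12 (SE 0.072) and -0.062 (SE 0.078) and passed in neither arm.

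The 19 semaphorins are described by class. Of the 6 in class 4, membrane-bound ligands, 4 rose in each arm and the rest did not pass; of the 4 in class 6, 2 rose and 1 fell in each. Among the 6 secreted class 3 members, 3 fell and the rest did not pass without inhibitor, and 1 rose and 1 fell with it. Of those 3, Sema3d passed the filter through the groups where it is higher, so its fall is given only as a value. Beside these counts, 23.7% of all genes rose and 27.5% fell without inhibitor, and 14.5% and 20.6% did with it. Sema4a, known as a ligand in the immune system and retina (chromosome 3, 88435959 to 88461182), had the highest fold of all 65 without inhibitor. It stood at 31.1, 7.27, 9.08 and 8.11 CPM in DMSO vehicle 1 to 4 and 49.6, 53.4, 45.5 and 44.2 CPM in DMSO acetate 1 to 4, and at 10.3, 36.3 and 9.53 CPM in inhibitor vehicle 1 to 3 and 58.1, 63.4, 58.6 and 58.4 CPM in inhibitor acetate 1 to 4. Apart from replicate 1, DMSO vehicle stayed at single digits, and inhibitor vehicle 2 lay far above the other libraries of its group. Both libraries also had the lowest non-neuronal scores of their groups. The folds were 1.79 (SE 0.45, edgeR adjusted p = 0.0043) and 1.68 (SE 0.50, edgeR adjusted p = 0.0179), against 0.069 (adjusted p = 0.876) and 0.60 (adjusted p = 0.0918) with the score as a covariate. Without DMSO vehicle 1 the first fold was 2.55, and without inhibitor vehicle 2 the second was 2.59; the second lost its call without inhibitor vehicle 1 or 3 (edgeR adjusted p between 0.0801 and 0.085).

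Sema6b, which repels hippocampal mossy fibers, stood at 236, 138, 176 and 176 CPM in DMSO vehicle 1 to 4 and 413, 425, 325 and 354 CPM in DMSO acetate 1 to 4, and at 209.6, 193 and 177 CPM in inhibitor vehicle 1 to 3 and 279, 323, 279.8 and 304 CPM in inhibitor acetate 1 to 4. Acetate libraries lay above vehicle libraries in both arms. It rose by 1.06 (SE 0.13) and 0.62 (SE 0.14), with 0.39 and 0.089 on neuronal markers. Sema4g stood at 159, 134, 158 and 156 CPM in DMSO vehicle 1 to 4 and 309, 262, 216 and 221 CPM in DMSO acetate 1 to 4, and rose by 0.73 (SE 0.11) and 0.50 (SE 0.12). Sema4f, a membrane semaphorin that binds a postsynaptic scaffold, was at 101, 50.8, 63.6 and 58.98 CPM in DMSO vehicle 1 to 4 and 122, 117, 120.0 and 101 CPM in DMSO acetate 1 to 4. DMSO vehicle 1 was the highest of its group. It rose by 0.75 (SE 0.17) and 0.61 (SE 0.18), and Sema4c, a ligand of plexin-B2, rose by 0.39 (SE 0.11) and 0.58 (SE 0.12). On neuronal markers Sema4g had 0.023 and -0.027, Sema4f 0.088 and 0.11, and Sema4c -0.32 and 0.039, so that Sema4g turned with inhibitor and Sema4c without it. Sema4f with inhibitor lost its call without inhibitor vehicle 1 or 3 (edgeR adjusted p between 0.0716 and 0.0855). Sema7a, a lipid-anchored ligand of plexin-C1 and integrins, was at 191, 88.4, 103 and 99.4 CPM in DMSO vehicle 1 to 4 and 192, 182, 173 and 177 CPM in DMSO acetate 1 to 4. DMSO vehicle 1 reached the acetate libraries while the other vehicle libraries did not. Its fold was 0.59 (SE 0.18, edgeR adjusted p = 0.0157) without inhibitor, lost without DMSO vehicle 2, 3 or 4 (edgeR adjusted p between 0.0516 and 0.0575) and turned to -0.059 on neuronal markers; with inhibitor, 0.39 (SE 0.20) did not pass, except without DMSO vehicle 1 (edgeR adjusted p = 0.00562). Sema4b, with -0.17 (SE 0.10) and -0.012 (SE 0.11), Sema4d, with -0.31 (SE 0.12) and -0.091 (SE 0.13), and Sema6d, with -0.16 (SE 0.21) and 0.12 (SE 0.23), passed in neither arm. Sema4d passed without inhibitor when any 1 of DMSO vehicle 1, DMSO acetate 1 or inhibitor vehicle 1, 2 or 3 (edgeR adjusted p between 0.00731 and 0.045) was left out, and with inhibitor without inhibitor vehicle 2 (edgeR adjusted p = 0.0488). Sema4b passed without DMSO acetate 1 (edgeR adjusted p = 0.0322).

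Falling semaphorins included Sema5a, a guidance cue with both attractive and repulsive effects. It stood at 24.9, 42.5, 32.1 and 33.8 CPM in DMSO vehicle 1 to 4 and 20.5, 19.4, 20.1 and 21.5 CPM in DMSO acetate 1 to 4, and at 42.4, 24.8 and 39.4 CPM in inhibitor vehicle 1 to 3 and 19.9, 18.6, 16.3 and 23.3 CPM in inhibitor acetate 1 to 4. DMSO vehicle 1 and inhibitor vehicle 2 were the lowest of their groups and lay just above the acetate libraries. It fell by 0.71 (SE 0.17) and 0.86 (SE 0.18), while with the score as a covariate the folds were -0.047 and -0.36, neither past the threshold. Sema6a, a ligand of A-type plexins, was at 55.04, 54.4, 46.7 and 49.6 CPM in DMSO vehicle 1 to 4 and 40.99, 36.5, 37.6 and 38.3 CPM in DMSO acetate 1 to 4. In inhibitor vehicle 1 to 3 it was at 54.1, 32.5 and 55.6 CPM. In inhibitor acetate 1 to 4 it was at 31.9, 31.2, 34.6 and 36.9 CPM, so inhibitor vehicle 2 lay within the acetate range. Sema6a fell by 0.42 (SE 0.13) and 0.49 (SE 0.14), the latter lost without inhibitor vehicle 1 or 3 (edgeR adjusted p between 0.0903 and 0.0959). With the covariate it had -0.018 (adjusted p = 0.954) and -0.16 (adjusted p = 0.486). Sema3b was at 1.88, 6.75, 6.30 and 8.15 CPM in DMSO vehicle 1 to 4 and 2.72, 2.07, 2.11 and 1.78 CPM in DMSO acetate 1 to 4, and at 9.86, 2.51 and 9.04 CPM in inhibitor vehicle 1 to 3 and 2.70, 3.54, 2.41 and 3.10 CPM in inhibitor acetate 1 to 4. DMSO vehicle 1 and inhibitor vehicle 2 each lay within the acetate range of their arm, and the other vehicle libraries lay above it. Sema3b fell by 1.40 (SE 0.41) and 1.28 (SE 0.43), with 0.68 and 0.36 in the fit with the covariate, where the sign turned and neither passed; the second call was lost without inhibitor vehicle 1 or 3 or inhibitor acetate 1, 3 or 4 (edgeR adjusted p between 0.0603 and 0.161). Sema3a, which collapses growth cones, was at 1.505, 4.01, 2.92 and 3.37 CPM in DMSO vehicle 1 to 4 and 1.80, 1.76, 1.26 and 1.95 CPM in DMSO acetate 1 to 4. It fell by 0.80 (SE 0.29) without inhibitor and had -0.71 (SE 0.33) with it, not passed; the first call was lost without DMSO vehicle 2, 3 or 4 or DMSO acetate 1, 2 or 3 (edgeR adjusted p between 0.0521 and 0.11), and the second was gained without DMSO vehicle 1 or inhibitor vehicle 2 (edgeR adjusted p between 0.0247 and 0.0455). Sema3d fell by 1.39 (SE 0.42) without inhibitor from a mean of 1.23 ± 0.444 CPM (SD, n = 4), a level near that of the filter. Its DMSO acetate libraries, at 0.375 to 0.541 CPM, lay on both sides of the filter level of 0.44 CPM, so its fall is not support. Most tested markers of the non-neuronal lists were also lower with acetate, and their part was not tested. With the score as a covariate, Sema3a had 0.35 and Sema3d 0.63 without inhibitor, with the sign turned and neither past the threshold. Sema3e, the ligand of plexin-D1, had 0.38 (SE 0.18), not passed, and rose by 0.60 (SE 0.20) with inhibitor, a call lost without inhibitor vehicle 1 or 3 or inhibitor acetate 1, 3 or 4 (edgeR adjusted p between 0.051 and 0.138). Sema3c (0.11 and 0.33), Sema3f (-0.19 and 0.14) and Sema5b (-0.25 and -0.21) passed in neither arm. Sema3c passed with inhibitor without inhibitor vehicle 2 (edgeR adjusted p = 0.00255), at 0.69, Sema3d without inhibitor vehicle 2 (edgeR adjusted p = 0.0142), and, without inhibitor, Sema3e without DMSO vehicle 1 (edgeR adjusted p = 0.0163) and Sema5b without DMSO vehicle 3 or DMSO acetate 1 (edgeR adjusted p between 0.0343 and 0.0359). With the covariate, Sema3f had 0.84 (adjusted p = 0.0106) and 0.96 (adjusted p = 0.00302).

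Plexins, the receptors of semaphorins, split by type. Of 4 A-type plexins, 3 rose in each arm, where 23.7% of all genes rose without and 14.5% with inhibitor. Plxnb1 and Plxnb2 fell in each arm, where 27.5% and 20.6% of all genes fell. The third B-type plexin, Plxnb3, was called lowered in both arms too, but was under the filter level in all 8 acetate libraries and passed the filter through vehicle libraries. On neuronal markers the A-type folds turned negative, relative to a median over all genes of -0.74 without and -0.55 with inhibitor. Plxna1, which pairs with neuropilin-1, was at 354, 247, 265 and 264 CPM in DMSO vehicle 1 to 4 and 428, 359, 351 and 345 CPM in DMSO acetate 1 to 4, and at 291, 295 and 287 CPM in inhibitor vehicle 1 to 3 and 357, 415, 394 and 413 CPM in inhibitor acetate 1 to 4. DMSO vehicle 1 overlapped the DMSO acetate libraries, and the inhibitor arm did not overlap. Its folds were 0.39 (SE 0.10) and 0.44 (SE 0.11). Plxna2 rose by 0.27 (SE 0.10) and 0.35 (SE 0.11), and Plxna3 by 0.30 (SE 0.087) and 0.30 (SE 0.095). On neuronal markers the 3 had -0.29, -0.42 and -0.40 without inhibitor and -0.087, -0.16 and -0.24 with it. Plxna2 lost its call without DMSO vehicle 2, 3 or 4, DMSO acetate 1, 3 or 4 or inhibitor acetate 3 (edgeR adjusted p between 0.0502 and 0.136) in the first arm, and without inhibitor vehicle 1 or 3 or inhibitor acetate 4 (edgeR adjusted p between 0.0609 and 0.112) in the second, where Plxna3 lost its call without inhibitor vehicle 2 or inhibitor acetate 2 or 4 (edgeR adjusted p between 0.0614 and 0.0789). Plxna4 had 0.032 (SE 0.079) and 0.13 (SE 0.086), not passed.

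Plxnb2, a plexin of neural progenitors and glia as well as neurons (chromosome 15, 89155549 to 89180788), stood at 297, 295, 275 and 311 CPM in DMSO vehicle 1 to 4 and 179, 146, 165 and 158 CPM in DMSO acetate 1 to 4. With inhibitor it was at 290.3, 173 and 276 CPM in inhibitor vehicle 1 to 3 and 167, 169, 171 and 161 CPM in inhibitor acetate 1 to 4. The acetate libraries lay below all vehicle libraries, with inhibitor vehicle 2 just above them. It fell by 0.86 (SE 0.12, edgeR adjusted p = 9.58e-05) and 0.56 (SE 0.13, edgeR adjusted p = 0.00524), and with the score as a covariate had -0.42 (adjusted p = 0.0382) and -0.21 (adjusted p = 0.247). Plxnb1, the receptor of Sema4d, was at 218, 209, 199 and 212 CPM in DMSO vehicle 1 to 4 and 135, 119, 119 and 119 CPM in DMSO acetate 1 to 4, and at 171, 131 and 192 CPM in inhibitor vehicle 1 to 3 and 108, 103, 129.6 and 94.04 CPM in inhibitor acetate 1 to 4. In both arms the groups did not overlap. Its folds were -0.77 (SE 0.11) and -0.60 (SE 0.12), and with the covariate -0.49 (adjusted p = 0.0311) and -0.38 (adjusted p = 0.0622). Plxnb3, known from oligodendrocytes, stood at 0.94, 8.02, 4.68 and 5.89 CPM in DMSO vehicle 1 to 4 and 0.305, 0.276, 0.234 and 0.27 CPM in DMSO acetate 1 to 4. DMSO vehicle 1 was the lowest of its group but above the acetate libraries. With inhibitor it was at 2.48, 0.319 and 3.40 CPM in inhibitor vehicle 1 to 3 and 0.392, 0.184, 0.0927 and 0.18 CPM in inhibitor acetate 1 to 4, and inhibitor vehicle 2 lay within the acetate range. Of 10 oligodendrocyte markers tested, 8 fell without and 6 with inhibitor, and 2 had folds above 0 in each arm. The summed level of that list overlapped between vehicle and acetate, and the part of these cells was not tested. The direction of Plxnb3 was fixed by the filter. Its folds of -4.13 (SE 0.69) and -3.25 (SE 0.77) became -0.44 (edgeR adjusted p = 0.651) and -0.040 (edgeR adjusted p = 0.968) with the covariate. Plxnc1, the receptor of Sema7a, had 0.25 (SE 0.12), not passed, and rose by 0.50 (SE 0.12) with inhibitor (-0.0070 on neuronal markers). Plxnd1 was at 75.2, 99.8, 103 and 104 CPM in DMSO vehicle 1 to 4 and 149, 133, 124 and 111 CPM in DMSO acetate 1 to 4, and at 147, 69.05 and 131 CPM in inhibitor vehicle 1 to 3 and 113, 124, 113 and 120.1 CPM in inhibitor acetate 1 to 4. Without inhibitor the groups did not overlap, and with inhibitor they did; DMSO vehicle 1 and inhibitor vehicle 2 were the lowest of their groups. Its folds of 0.44 (SE 0.18) and 0.019 (SE 0.19) did not pass; without these 2 libraries they were 0.34 (edgeR adjusted p = 0.00174) and -0.24 (edgeR adjusted p = 0.0392), opposite in sign. With the covariate both passed, at 1.26 and 0.67. The first arm also passed without DMSO acetate 4 or inhibitor vehicle 1 or 2 (edgeR adjusted p between 0.00217 and 0.0448), and Plxnc1 did so without inhibitor vehicle 1 (edgeR adjusted p = 0.0476).

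**Figure D3:**
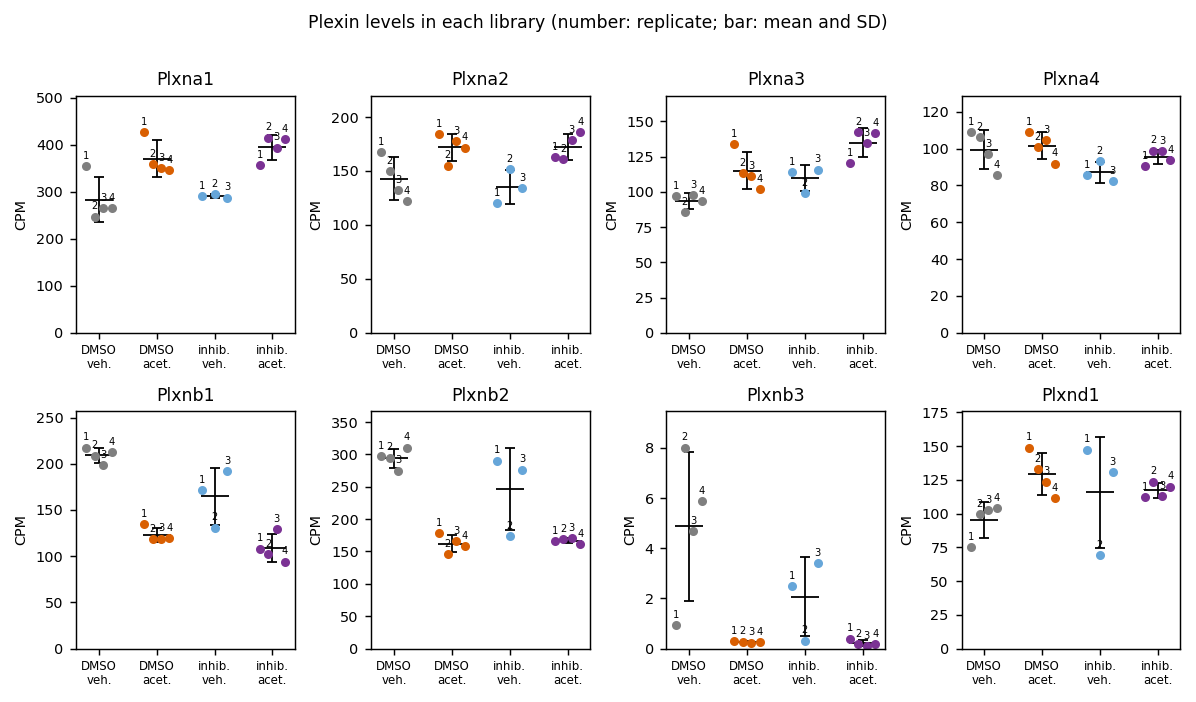
CPM (vertical axis, from 0) of 8 plexins in each library of the 4 groups; points are libraries with the replicate number, and bars the mean and SD. Plxnb1 lies between 199 and 218 CPM in DMSO vehicle and between 119 and 135 CPM in DMSO acetate; the A-type plexins, drawn with TMM scaling, turned to negative folds when scaled on neuronal markers.

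Of the 2 neuropilins, which bind class 3 semaphorins, Nrp2 rose in both arms and Nrp1 without inhibitor. Nrp1 (chromosome 8, 128358604 to 128503363) was at 316, 233, 228 and 223 CPM in DMSO vehicle 1 to 4 and 385, 477, 428 and 469 CPM in DMSO acetate 1 to 4, and at 255, 418 and 236 CPM in inhibitor vehicle 1 to 3 and 322, 319, 281 and 395 CPM in inhibitor acetate 1 to 4. Without inhibitor the acetate libraries lay above all vehicle libraries, and with inhibitor the groups overlapped, inhibitor vehicle 2 lying above every inhibitor acetate library. Its fold was 0.81 (SE 0.17, edgeR adjusted p = 0.00125) without and 0.12 (SE 0.18, edgeR adjusted p = 0.64) with inhibitor. The difference of the responses was -0.69 (SE 0.25) (edgeR adjusted p = 0.132). Without inhibitor vehicle 2 the second fold was 0.43 and passed (edgeR adjusted p = 0.0339). With the score as a covariate the folds were 0.14 and -0.32, neither past the threshold, and on neuronal markers 0.13 and -0.36. Nrp2, the neuropilin of Sema3f signaling in hippocampal pathways, rose by 0.49 (SE 0.068) and 0.48 (SE 0.074), from 135 ± 12.97 CPM (SD, n = 4) to 189.6 ± 5.57 CPM (SD, n = 4) in the arm without inhibitor; it kept its calls with the covariate (0.46 and 0.46) and turned to -0.20 and -0.053 on neuronal markers.

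The 3 Slit ligands went different ways. Slit1 (chromosome 19, 41600257 to 41743665) stood at 194, 88.7, 115 and 110.2 CPM in DMSO vehicle 1 to 4 and 235, 214, 186 and 201 CPM in DMSO acetate 1 to 4, and at 112, 139.8 and 102 CPM in inhibitor vehicle 1 to 3 and 197, 223, 202 and 207 CPM in inhibitor acetate 1 to 4. DMSO vehicle 1 lay among the acetate libraries, and with inhibitor the groups did not overlap. Slit1 rose by 0.72 (SE 0.18, edgeR adjusted p = 0.00427) and 0.81 (SE 0.20, edgeR adjusted p = 0.00693), but with the covariate it had 0.16 and 0.39 and did not pass. Slit2 was at 29.3, 28.8, 21.2 and 22.5 CPM in DMSO vehicle 1 to 4 and 17.4, 17.7, 19.1 and 19.9 CPM in DMSO acetate 1 to 4, and at 29.1, 23.3 and 24.5 CPM in inhibitor vehicle 1 to 3 and 18.1, 17.6, 19.1 and 18.04 CPM in inhibitor acetate 1 to 4. No acetate library reached a vehicle library. It fell by 0.46 (SE 0.11, edgeR adjusted p = 0.00264) and 0.49 (SE 0.12, edgeR adjusted p = 0.00562), and with the covariate had -0.46 (adjusted p = 0.0768) and -0.49 (adjusted p = 0.0431). Slit3 stood at 46.3, 24.4, 25.2 and 26.03 CPM in DMSO vehicle 1 to 4 and 43.6, 37.7, 36.1 and 36.7 CPM in DMSO acetate 1 to 4, where replicate 1 of the vehicle group was above every acetate library. Its fold of 0.34 (SE 0.17) did not pass (edgeR adjusted p = 0.104), but without DMSO vehicle 1 it was 0.60 (edgeR adjusted p = 0.000104), and on neuronal markers -0.32. With inhibitor it had 0.25 (SE 0.18) and passed without DMSO vehicle 1 (edgeR adjusted p = 0.0409). Of the Slit receptors, Robo1 was at 27.7, 19.4, 15.6 and 16.3 CPM in DMSO vehicle 1 to 4 and 31.6, 28.8, 31.7 and 33.5 CPM in DMSO acetate 1 to 4, and at 15.3, 30.9 and 15.6 CPM in inhibitor vehicle 1 to 3 and 31.2, 26.4, 34.6 and 36.5 CPM in inhibitor acetate 1 to 4. In DMSO vehicle replicate 1 was the highest and came close to the lowest acetate library, and inhibitor vehicle 2 lay within the acetate range. Robo1 rose by 0.67 (SE 0.21) and 0.65 (SE 0.23); the covariate fit gave -0.20, with the sign turned, and 0.080, neither past the threshold. The call without inhibitor was lost without DMSO vehicle 3 or 4 (edgeR adjusted p between 0.056 and 0.0577), and the call with inhibitor without DMSO vehicle 2, DMSO acetate 1, 2, 3 or 4, inhibitor vehicle 1 or 3 or inhibitor acetate 1, 3 or 4 (edgeR adjusted p between 0.0506 and 0.189). Robo2, with -0.015 (SE 0.12) and 0.18 (SE 0.13), and Robo3, with 0.13 (SE 0.23) and 0.51 (SE 0.24), passed in neither arm, although Robo3 passed with inhibitor without inhibitor vehicle 2 (edgeR adjusted p = 0.0428).

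Of 8 netrins and netrin receptors, 3 passed without and 2 with inhibitor. Over all genes, 23.7% rose and 27.5% fell without inhibitor, and 14.5% rose and 20.6% fell with it, so these counts do not mark the family out. Ntn1, the netrin that attracts commissural axons (chromosome 11, 68209364 to 68400823), stood at 19.9, 14.7, 12.7 and 14.5 CPM in DMSO vehicle 1 to 4 and 8.32, 6.84, 7.87 and 9.14 CPM in DMSO acetate 1 to 4. With inhibitor it was at 5.95, 7.47 and 11.3 CPM in inhibitor vehicle 1 to 3 and 6.44, 5.65, 8.02 and 4.81 CPM in inhibitor acetate 1 to 4, where the groups overlapped and inhibitor vehicle lay near the level of DMSO acetate. Its fold was -0.95 (SE 0.20, edgeR adjusted p = 0.00142) without and -0.41 (SE 0.22, edgeR adjusted p = 0.163) with inhibitor, and the difference of the responses was 0.54 (SE 0.30) (edgeR adjusted p = 0.332). With the covariate it had -0.98 (adjusted p = 0.0309) and -0.44 (adjusted p = 0.316). Ntn3 had 0.25 (SE 0.14), not passed, and rose by 0.41 (SE 0.15) with inhibitor, a call lost without DMSO vehicle 2, 3 or 4, DMSO acetate 1, 2, 3 or 4, inhibitor vehicle 1 or 2 or inhibitor acetate 1, 2, 3 or 4 (edgeR adjusted p between 0.0512 and 0.171); on neuronal markers it had -0.48 and -0.15. Ntn4, at 0.449 to 2.26 CPM over the libraries, had -0.76 (SE 0.43) and 0.81 (SE 0.47) and did not pass; in the second arm it passed without inhibitor vehicle 3 (edgeR adjusted p = 0.0477). Dcc, the attractive netrin receptor, was at 50.8, 68.4, 52.1 and 54.4 CPM in DMSO vehicle 1 to 4 and 52.6, 56.4, 52.9 and 54.5 CPM in DMSO acetate 1 to 4. Its vehicle and acetate libraries overlapped in both arms, with folds of -0.062 (SE 0.11) and -0.25 (SE 0.12), not passed; in the second arm it passed without inhibitor acetate 4 (edgeR adjusted p = 0.0357), at -0.34. Unc5a, a repulsive netrin receptor (chromosome 13, 54949411 to 55006018), stood at 197, 106, 133 and 137 CPM in DMSO vehicle 1 to 4 and 272, 269, 224 and 246 CPM in DMSO acetate 1 to 4, and at 133, 115 and 116 CPM in inhibitor vehicle 1 to 3 and 162, 186, 154 and 181 CPM in inhibitor acetate 1 to 4. Acetate libraries exceeded vehicle libraries in both arms. It rose by 0.82 (SE 0.14) and 0.50 (SE 0.16), with 0.15 and -0.037 on neuronal markers, and the second call was lost without inhibitor vehicle 3 or inhibitor acetate 2 or 4 (edgeR adjusted p between 0.0542 and 0.0783). Unc5c rose by 0.35 (SE 0.13) without inhibitor and had 0.15 (SE 0.14) with it; the first call was lost without DMSO vehicle 1, 3 or 4 or DMSO acetate 3 or 4 (edgeR adjusted p between 0.0635 and 0.105) and turned to -0.38 on neuronal markers. Unc5b (-0.13 and -0.20) and Unc5d (0.16 and 0.24) passed in neither arm.

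**Figure D4:**
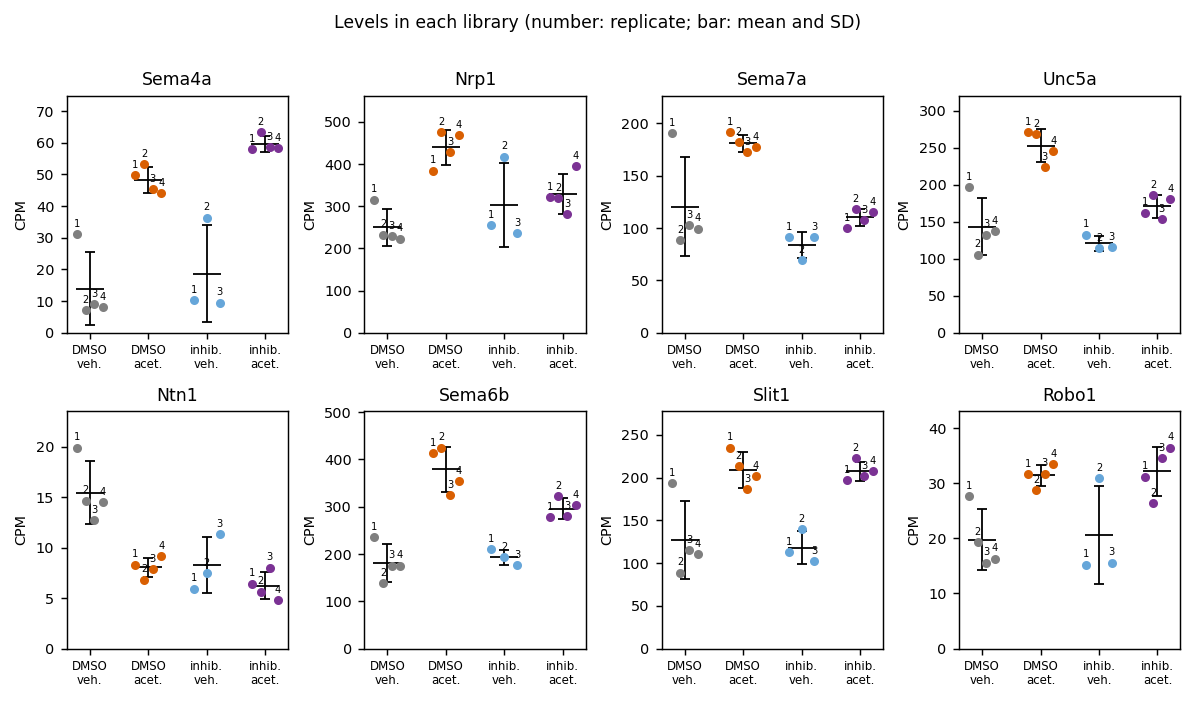
CPM (vertical axis, from 0) of 8 members in each library of the 4 groups; points are libraries with the replicate number, and bars the mean and SD. In the panel of Sema4a, DMSO vehicle 1 lies at 31.1 CPM and inhibitor vehicle 2 at 36.3 CPM, above 7.27 to 10.3 CPM in the other vehicle libraries; Sema7a, Nrp1 with inhibitor and Unc5a with inhibitor turned in sign when scaled on neuronal markers.

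The 3 fits were compared for the 33 members that passed in both arms. Scaling on neuronal markers lowers the folds of genes in general, so falls remain falls by its construction. Under it, 5 of the 22 raised members still rose in both arms: Efna3, Epha10, Epha8, Sema4a and Sema6c. With the covariate, 7 of the 22 still rose in both arms (Efna3, Epha10, Epha8, Nrp2, Plxna3, Sema4c and Sema6c), and 0 of the 11 still fell in both by edgeR. In that fit Plxnb1, Plxnb2 and Efnb2 fell without inhibitor, and Efna5 and Slit2 with it. Epha2 was called lowered without inhibitor too, but it passed the filter through vehicle libraries, so its fall is given only as a value. On neuronal markers, 1.99% of all genes rose without and 1.43% with inhibitor. With the covariate, 8.13% and 5.23% rose and 6.75% and 6.77% fell. Calls kept in both arms were not counted over all genes, so the counts kept are not a trait of the members. Neuronal marker scaling takes those markers as unchanged, and the score itself differed between vehicle and acetate groups, and acetate and the makeup of the cultures cannot be told apart in this design.

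**Figure D5:**
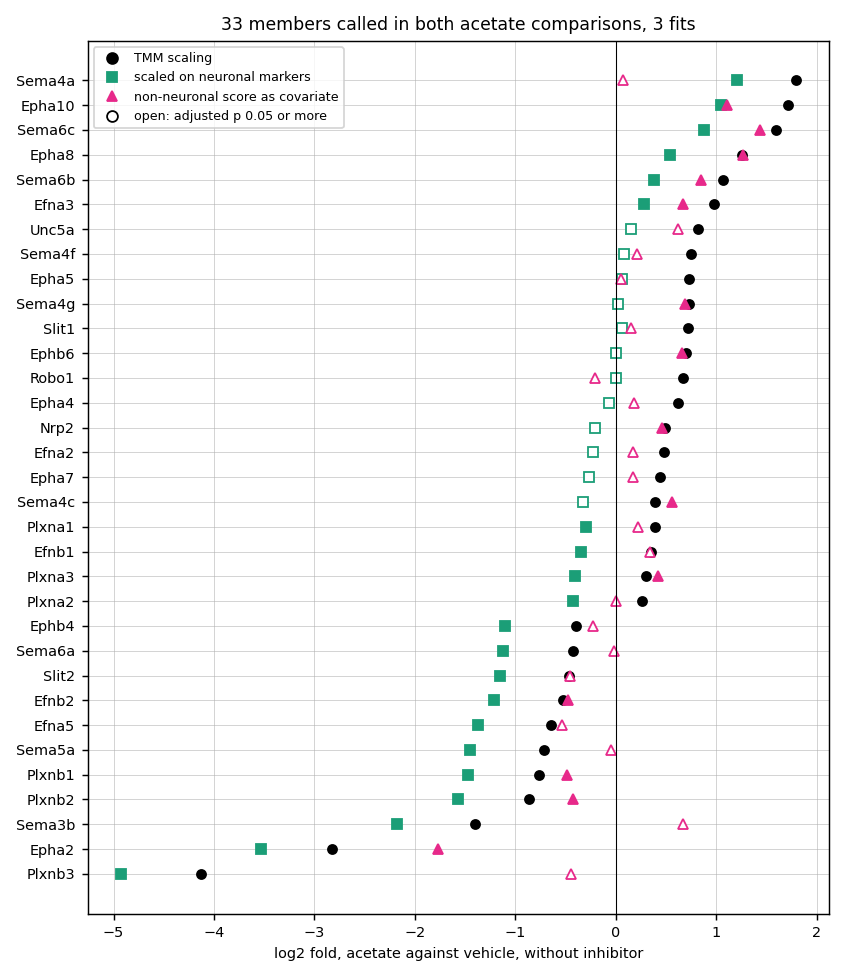
Log2 fold with acetate without inhibitor (horizontal axis) for the 33 members that passed in both arms, with TMM scaling as circles, scaling on neuronal markers as squares and the covariate fit as triangles; filled points passed the test. Epha10 keeps 1.71, 1.05 and 1.11, whereas Sema4a has 1.79, 1.21 and 0.069 and Plxna2 0.27, -0.42 and 0.0019.

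Genes that act with these ligands and receptors were read from 2 further lists, one of 40 cytoplasmic effectors and one of 24 other cues and co-receptors. Without inhibitor, 15 effectors rose (37.5%) and 8 fell (20%, median 0.12), and with inhibitor 13 rose (32.5%) and 3 fell (7.5%, median 0.18). Over all genes, 23.7% rose and 27.5% fell without inhibitor (median -0.034), and 14.5% and 20.6% with it (median -0.030). Limk1, the kinase that inactivates cofilin downstream of semaphorins and ephrins, rose by 0.98 (SE 0.10) and 0.71 (SE 0.11), and had 0.28 and 0.20 on neuronal markers and 0.75 (adjusted p = 0.00207) and 0.55 (adjusted p = 0.00721) with the covariate. Dpysl2, the collapsin response mediator of Sema3a signaling, rose by 0.74 (SE 0.13) without inhibitor, and its relatives Crmp1 and Dpysl5 by 0.82 (SE 0.18) and 0.72 (SE 0.15) with it. Genes of this list were picked by smallest p within each arm. The other arm is not given for these genes, and no difference between arms is read from this. Dpysl2, Crmp1 and Dpysl5 lost their calls with the covariate, at 0.27 (adjusted p = 0.164), 0.45 (adjusted p = 0.087) and 0.45 (adjusted p = 0.0649). On neuronal markers they had 0.054, 0.32 and 0.21 (edgeR adjusted p = 0.53, 0.0107 and 0.0458), so Crmp1 and Dpysl5 kept their calls there. Farp2, an exchange factor bound by A-type plexins, fell by 1.001 (SE 0.19) and 0.97 (SE 0.20), and had -0.27 (adjusted p = 0.39) and -0.43 (adjusted p = 0.116) with the covariate. Of the 24 other cues and co-receptors, 12 rose (50%) and 4 fell (16.7%) without inhibitor (median 0.27), and 10 (41.7%) and 3 (12.5%) with it (median 0.22). The shares of all genes were 23.7% and 27.5% without and 14.5% and 20.6% with inhibitor. Draxin, a secreted repellent that binds Dcc, rose by 0.78 (SE 0.12) and 1.29 (SE 0.13), and Islr2 by 0.84 (SE 0.11) and 0.80 (SE 0.12). With the covariate Draxin had 1.26 (adjusted p = 2.87e-05) and 1.64 (adjusted p = 5.78e-07) and Islr2 0.71 (adjusted p = 0.0108) and 0.71 (adjusted p = 0.0072), while on neuronal markers they had 0.054 and 0.14 without inhibitor and 0.74 and 0.28 with it. Gfra1, a receptor for the growth factor GDNF, fell by 1.14 (SE 0.20) and 0.95 (SE 0.21), and Adam17, a protease that sheds surface proteins, by 0.72 (SE 0.13) and 0.45 (SE 0.14). Both lost their calls with the covariate, Gfra1 at -0.23 (adjusted p = 0.36) and -0.27 (adjusted p = 0.214) and Adam17 at -0.40 (adjusted p = 0.13) and -0.21 (adjusted p = 0.416).

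The inhibitor itself was compared with DMSO, without and with acetate, and few members passed. These comparisons share libraries with the acetate comparisons and are given by their own values. Without acetate, 1 of 65 rose and 1 fell, where 3.47% of all genes rose and 1.99% fell. Sema6c rose by 0.44 (SE 0.10, edgeR adjusted p = 0.0235), from 78.2 ± 7.85 CPM (SD, n = 4) in DMSO vehicle to 106 ± 11.2 CPM (SD, n = 3) in inhibitor vehicle, a call lost without DMSO vehicle 2 or inhibitor vehicle 1 or 2 (edgeR adjusted p between 0.0574 and 0.0783). Ntn1 fell by 0.90 (SE 0.22, edgeR adjusted p = 0.0322), from 15.5 ± 3.11 CPM (SD, n = 4) to 8.26 ± 2.78 CPM (SD, n = 3), lost without DMSO vehicle 1 or 2 or inhibitor vehicle 1 or 2 (edgeR adjusted p between 0.0544 and 0.115). With acetate, 0 rose by edgeR and 2 fell, against 2.36% and 3.42% of all genes; 16 members had an unadjusted p under 0.05, and DESeq2 called 1 raised, Plxnc1. Sema7a fell by 0.71 (SE 0.19, edgeR adjusted p = 0.0368), with 192, 182, 173 and 177 CPM in DMSO acetate and 100.2, 118, 107 and 115 CPM in inhibitor acetate. Unc5a fell by 0.56 (SE 0.14, edgeR adjusted p = 0.0337), its libraries likewise not overlapping. Each of these calls was lost without any 1 of the 8 acetate libraries, Sema7a with adjusted p between 0.0679 and 0.106 and Unc5a between 0.051 and 0.114. The spread in that fit is shared over all 4 groups. Fitted on the acetate libraries alone, 8 of 62 members tested rose and 6 fell with the inhibitor, where 8.58% and 10.6% of all genes did. Without DMSO vehicle 1 and inhibitor vehicle 2 the counts were 7 and 8 of 65, against 6.89% and 10.7% of all genes. Efna1 was among those rises, at 1.14, and Nrp1, at -0.42, and Sema6b, at -0.36, among the falls. Leaving out a single library raised or lowered others past the threshold: with acetate, Slit3, Efna1, Nrp2, Sema5b and Sema6b without DMSO vehicle 1, Nrp1 without inhibitor vehicle 2, Plxnc1 without inhibitor vehicle 1 and Plxna3 without DMSO acetate 1 (edgeR adjusted p between 0.00784 and 0.0481); without acetate, Ephb6 and Plxnb1 without inhibitor vehicle 3, Sema4g without that library or DMSO acetate 1, Efna4 without DMSO vehicle 4 and Plxnd1 without inhibitor vehicle 2 (edgeR adjusted p between 0.0318 and 0.0442).

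Whether the inhibitor changed the response to acetate was tested directly, as the response with inhibitor minus that without. By edgeR, 0 of 65 members passed upward and 0 downward, where 0.0133% and 0.00663% of all genes did; 5 had an unadjusted p under 0.05, and DESeq2 called 1, Sema6c. Sema6c had the smallest p, with a difference of -0.52 (SE 0.14) (edgeR adjusted p = 0.0724). After it came Nrp1, Ntn4, with 1.58 (SE 0.64), Sema6b, with -0.45 (SE 0.20), and Ephb6, with -0.32 (SE 0.15), at edgeR adjusted p = 0.132, 0.177, 0.208 and 0.23. Without inhibitor vehicle 3, Sema6c (edgeR adjusted p = 0.0306) and Ntn4 (edgeR adjusted p = 0.0467) passed. Without DMSO vehicle 1 and inhibitor vehicle 2, 4 members passed with a lower response with inhibitor: Plxnd1 (-0.59), Sema6b (-0.60), Sema7a (-0.63) and Unc5a (-0.55). In that fit 2.74% of all genes passed downward and 1.56% upward. Because the 2 libraries were chosen after they were seen to stand apart, its calls are not support for a changed response. Epha10 and Epha8 had differences of -0.018 (SE 0.26) and -0.11 (SE 0.14), Efna3 of -0.043 (SE 0.18), Plxna1 of 0.049 (SE 0.15) and Slit2 of -0.033 (SE 0.16); a p above the threshold does not show that the responses were alike.

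Levels were compared between members per kilobase of exon. In DMSO vehicle, Efnb3 was highest at 69.5 CPM per kb, followed by Sema6b at 45.7, Plxnb2 at 38.1, Sema7a at 36.5, Unc5a at 34.4 and Plxna1 at 31.2, where the SD over libraries was 6.46, 10.2, 1.91, 14.4, 9.27 and 5.32. Efnb3 lay above Sema6b by more than these SDs, and from Sema6b to Plxna1 neighbours differed by less than the larger of their SDs. In DMSO acetate, Sema6b stood at 95.6 CPM per kb and Efnb3 at 87.6, while Plxnb2 was at 21.00. The most abundant members of the other families in DMSO vehicle were Ephb6 at 29.1, Nrp1 at 25.6, Efna3 at 24.9, Slit1 at 21.4, Sema4g at 17.5, Epha4 at 10.7, Sema5b at 6.30, Dcc at 4.28, Sema3c at 3.38, Ntn1 at 2.46 and Robo1 at 1.20 CPM per kb.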

How the data were processed

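The authors deposited 1 table of raw read counts, unnormalized, with a gene symbol per row and 15 libraries. Per the submitters' processing notes, STAR 2.5.2a, HTSeq 0.6.1p1, DESeq2 and build mm10 were named; annotation, counting mode and strand setting were not named there, so values of overlapping, antisense and near-identical genes are uncertain. Per the labels' protocols, QIAzol lysates gave the RNA, and a directional kit made the libraries. The 5 summary lines that name no gene took 38.9% to 47.4% of all counts and were removed. The fit used edgeR 4.0.16 under R 4.3.3: default expression filter, TMM scaling, quasi-likelihood dispersions from all 15 libraries with 1 coefficient for each group, and Benjamini-Hochberg adjustment over 15075 genes; each SE was taken from the fold and its F statistic. DESeq2 1.42.0 was an alternative. The fits were tested on simulated data. Within-group pairs of libraries differed by at least 4.65 in chi-square per gene, so none was a copy. Positions and exon lengths come from GENCODE M21 on GRCm38, which is mm10, where all 65 members matched; promoters of 55 were listed by RefSeq. Marker and pathway lists and the members were chosen with earlier results of these data known. Values in every library are given for up to 10 of the highest and lowest folds past the threshold, for the most abundant member of most families, and for others chosen after their values were seen; alternatives were other scalings, no filter, only the groups compared, the replicate block, the covariate, and leaving out libraries.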

Additional observations from a re-analysis of the deposited data

Results flagged for a closer look

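Each of the 65 members was examined in the 3 groups of 4 libraries. In 19 of 195 cases 1 library lay far from the other 3, its gap to them exceeding Dixon's critical value as a share of the group's range. Independent groups exceed that value by chance in about 1 in 20. The cases here share the same libraries and were not counted over all genes, so they cannot be set against that rate. DMSO vehicle 1 was the outlying library in 8 cases. These were Efna1 in DMSO vehicle 1 at 0.64 CPM (others 4.06 to 4.37), Nrp1 in DMSO vehicle 1 at 316 CPM (others 223 to 233) and Plxna1 in DMSO vehicle 1 at 354 CPM (others 247 to 265). Others were Plxnd1 in DMSO vehicle 1 at 75.2 CPM (others 99.8 to 104), Sema4a in DMSO vehicle 1 at 31.1 CPM (others 7.27 to 9.08) and Sema4b in DMSO vehicle 1 at 45.9 CPM (others 36.05 to 36.7). Further cases were Sema7a in DMSO vehicle 1 at 191 CPM (others 88.4 to 103) and Slit3 in DMSO vehicle 1 at 46.3 CPM (others 24.4 to 26.03). The remaining cases lay in other libraries. Among them were Efna5 in DMSO acetate 1 at 10.3 CPM (others 12.3 to 12.5), Efnb2 in DMSO acetate 2 at 20.2 CPM (others 22.9 to 23.4) and Epha2 in inhibitor acetate 3 at 0.278 CPM (others 0.435 to 0.459). There were also Epha7 in inhibitor acetate 4 at 47.2 CPM (others 40.1 to 40.7), Ephb1 in inhibitor acetate 4 at 40.1 CPM (others 32.99 to 34.2) and Ephb3 in DMSO acetate 1 at 27.2 CPM (others 23.2 to 23.5). To these came Plxna1 in DMSO acetate 1 at 428 CPM (others 345 to 359), Plxnb1 in DMSO acetate 1 at 135 CPM (others 119 to 119) and Sema4a in inhibitor acetate 2 at 63.4 CPM (others 58.1 to 58.6). The last were Sema4g in DMSO vehicle 2 at 134 CPM (others 156 to 159) and Unc5d in inhibitor acetate 4 at 16.8 CPM (others 13.2 to 13.4).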

How the results depend on the processing

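With RLE or upper-quartile scaling, no filter, only the groups compared, DESeq2 or the replicate block, between 39 and 41 of the 41 calls without inhibitor and between 32 and 37 of the 37 with inhibitor were kept. Neuronal marker scaling kept 21 and 17, and the covariate 18 and 10; raised and lowered counts were 6 and 39 without and 6 and 25 with inhibitor in the first, and 15 and 6 without and 10 and 2 with inhibitor in the second. Leaving out each library in turn gave 21 to 28 raised and 14 to 17 lowered without inhibitor, 17 to 29 raised and 8 to 14 lowered with it, 0 to 3 raised and 0 to 2 lowered for the inhibitor without acetate, 0 to 1 raised and 0 to 6 lowered for the inhibitor with acetate, and 0 to 1 raised and 0 to 1 lowered for the difference of responses. Shares of all genes moved too. Without inhibitor 20.1% to 25.2% were raised and 23.6% to 29.9% lowered, and with it 8.16% to 18.9% and 12.3% to 23.7%. For the inhibitor they were 0.877% to 6.57% and 0.393% to 4.14% without acetate, and 0.644% to 3.98% and 0.598% to 5.78% with it. For the inhibitor without acetate, raised and lowered members numbered 0 and 0 on neuronal markers, 0 and 0 with only the groups compared, 8 and 5 with the covariate, 4 and 2 without DMSO vehicle 1 and inhibitor vehicle 2, 4 and 2 by DESeq2, and 1 and 2 with upper-quartile scaling. In the same order, the shares of all genes were 0.272% and 0.352%, 0% and 0%, 7.83% and 6.96%, 2.71% and 2.6%, 6.12% and 4.49%, and 2.97% and 2.46%. For the inhibitor with acetate they were 0 and 0, 8 and 6, 4 and 6, 7 and 8, and 1 and 2 members in the first 5 of these settings. The shares of all genes there were 0.65% and 0.219%, 8.58% and 10.6%, 5.76% and 9.2%, 6.89% and 10.7%, and 3.8% and 5.53%. For the difference of responses, 3 were lowered with the covariate, 4 without the 2 libraries and 1 by DESeq2, against 3.99%, 2.74% and 4.21% of all genes. The fit on only the groups compared is the main fit there. The cause of these moves was not tested. 

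No sign was seen that the replicate numbers pair the libraries. Same-numbered libraries had correlations of their deviations between -0.652 and 0.38, and for 2 of 15 libraries the best match in another group had the same number. This cannot show that pairing was absent, because DMSO vehicle 1 and inhibitor vehicle 2, which stood apart, had a correlation of 0.741. With the replicate block, 25 members were raised and 14 lowered without inhibitor, 24 and 10 with it, and 0 and 1 for the inhibitor with acetate. The shares of all genes in that fit were 22.4% and 25.8%, 12.7% and 17.4%, and 1.55% and 1.87%.

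Signs that turned are given for results past the threshold in at least 1 of the 2 fits. Scaled on neuronal markers, the sign turned without inhibitor for Efna2 (-0.23), Efna4 (-0.59), Efnb1 (-0.35), Efnb3 (-0.36), Epha4 (-0.066), Epha7 (-0.26), Ephb2 (-0.47), Nrp2 (-0.20), Plxna1 (-0.29), Plxna2 (-0.42), Plxna3 (-0.40) and Plxna4 (-0.67). The same held for Plxnc1 (-0.45), Robo3 (-0.59), Sema3c (-0.59), Sema4c (-0.32), Sema7a (-0.059), Slit3 (-0.32), Unc5c (-0.38), Unc5d (-0.57), Cdk5 (-0.11), Pak3 (-0.050) and Rgma (-0.14). Scaled on neuronal markers, the sign turned with inhibitor for Efna2 (-0.20), Efnb1 (-0.15), Efnb3 (-0.40), Epha7 (-0.027), Ephb2 (-0.050), Ephb6 (-0.15), Nrp1 (-0.36), Nrp2 (-0.053), Ntn3 (-0.15), Plxna1 (-0.087), Plxna2 (-0.16) and Plxna3 (-0.24). The same held for Plxna4 (-0.38), Plxnc1 (-0.0070), Sema4g (-0.027) and Unc5a (-0.037). With the covariate for the non-neuronal score, the sign turned without inhibitor for Robo1 (-0.20), Sema3a (0.35), Sema3b (0.68), Sema3d (0.63) and Sema3f (0.84). With the covariate for the non-neuronal score, the sign turned with inhibitor for Sema3b (0.36) and Mical1 (0.14). Without DMSO vehicle 1 and inhibitor vehicle 2, it turned with inhibitor for Plxnd1 (-0.24). The cause was not tested. Low-count members (Plxnb3, Sema3d and Epha2 in acetate) limit what depth can show.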
